A study of Homo sapiens with 12 samples.

Results

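The genes described here encode 10 enzymes that convert steroid hormones into one another, attach sulfate to them or remove it: CYP19A1, CYP21A2, HSD17B1, HSD17B2, HSD11B2, SRD5A1, SULT1E1, SULT2A1, SULT1A1 and STS. They were taken by symbol from the 16705 genes measured, as enzymes of these reactions and with earlier results of these data known, and all 10 had a mean of at least 0.5 FPKM (fragments mapped to a gene, scaled by transcript length and by the library's total), the minimum for testing, as did 11713 genes in all. RNA came from spheroids in which 2 human liver lines grew together, with many spheroids pooled in each extract. The hepatocyte part was C3A, a subclone of HepG2, which derives from a liver tumour, and the stellate part was LX-2, a line of stellate cells that were immortalized and show an activated state. The question was what total parenteral nutrition (TPN), the intravenous feeding mixture of amino acids, electrolytes, glucose, lipid emulsion, trace elements and vitamins, does to liver cells after a short and a long exposure. Untreated spheroids and spheroids exposed to 1% TPN were each taken at 24 h and at 144 h, giving 4 groups of 3 libraries. The hours count from the start of exposure, on day 3 after seeding, so all cultures were older than the hours given. No gene was targeted and no group carried an engineered allele. Each cell type is 1 line, one from a tumour and one immortalized, so the groups do not sample donors. The p values of the model used below measure the spread between libraries of the same lines within groups, pooled over the 4 groups.

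Steroid hormones are made from cholesterol in the adrenal cortex, gonads and placenta, and the liver is the main site where they are inactivated and prepared for excretion. Oxidizing and reducing enzymes move a steroid between an active and a weak form, and a sulfate group makes it soluble and keeps it from its receptor until a sulfatase takes the group off again. Sulfotransferases take the sulfate from a donor molecule made by PAPSS1 and PAPSS2, and many of their genes respond to the same nuclear receptors that govern bile acid and drug metabolism.

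Promoter sequence was at hand for 6 of the 10 genes in the RefSeq table of GRCh38.p14, with 1 start site for CYP21A2, SRD5A1, SULT1E1 and SULT2A1, 5 for STS and 7 for CYP19A1. The 250 bases before the start are shown for the sulfotransferase gene that fell with TPN at both times, for the hydroxylase gene that rose at 144 h, and for the abundant sulfotransferase gene that passed the fold threshold at neither time. They lie at chr4:69860146-69860395 on the minus strand, chr6:32038165-32038414 on the plus strand and chr19:47886316-47886565 on the minus strand, each written 5′ to 3′ along its gene. Capitals mark matches, on either strand, to 6 short motifs searched: TATAAA, the letters of a TATA box, then CCAAT, which NF-Y can bind, then GGGCGG, a box for SP1 factors, then AGGTCA, the half-site of many nuclear receptors, then TGACNNNGC, the core of the antioxidant response element, and last GTTAAT, part of the site of HNF1 factors.
SULT1E1: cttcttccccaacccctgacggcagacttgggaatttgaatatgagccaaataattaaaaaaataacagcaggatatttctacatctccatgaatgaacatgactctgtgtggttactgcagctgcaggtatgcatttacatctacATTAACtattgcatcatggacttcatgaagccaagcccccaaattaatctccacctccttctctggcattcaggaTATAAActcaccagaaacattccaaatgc
CYP21A2: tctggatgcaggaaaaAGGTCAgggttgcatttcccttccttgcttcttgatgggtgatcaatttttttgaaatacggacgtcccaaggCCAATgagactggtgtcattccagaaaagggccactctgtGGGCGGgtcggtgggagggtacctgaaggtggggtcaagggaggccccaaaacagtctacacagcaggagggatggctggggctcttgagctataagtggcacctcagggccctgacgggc
SULT2A1: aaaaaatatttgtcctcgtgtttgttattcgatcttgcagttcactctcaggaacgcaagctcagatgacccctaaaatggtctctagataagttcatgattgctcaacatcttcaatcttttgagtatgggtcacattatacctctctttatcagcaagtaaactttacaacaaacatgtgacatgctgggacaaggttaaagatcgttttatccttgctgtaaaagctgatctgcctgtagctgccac
The SULT1E1 window holds TATAAA, 29 bases before the start, and GTTAAT on the opposite strand, 104 bases before it. The CYP21A2 window holds AGGTCA 234 bases, CCAAT 161 bases and GGGCGG 121 bases before the start. The SULT2A1 window holds none of the 6, which says only that these letters are not in these bases. Of all 34943 promoters of that length, 10.8% hold TATAAA, 32.0% CCAAT, 42.5% GGGCGG, 12.1% AGGTCA, 10.9% TGACNNNGC and 6.24% GTTAAT, so a match is a description and no sign of a bound factor. The G and C content was 40.8% for SULT1E1, 55.2% for CYP21A2 and 39.2% for SULT2A1, against a median of 58% over all promoters.

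The libraries were alike in the number of genes detected, and between 10936 and 11074 genes reached 1 FPKM. FPKM values, which are already scaled by each library's total, summed to between 561657 and 583722. Taken over all libraries together, the steps of the lowest values corresponded to 18564451 fragments per library. The size of single libraries was not estimated. All 10 hepatocyte markers examined, among them ALB and APOB, were above 1 FPKM in every library. The list as a whole summed to between 16333 and 16636 FPKM in untreated spheroids at 24 h, 14843 to 14988 with TPN at 24 h, 17406 to 18831 in untreated spheroids at 144 h and 12835 to 13884 with TPN at 144 h, where 3 of the 10 were lower. The 13 stellate cell markers were less even. COL1A1, the main chain of type I collagen, was at 14.09 to 16.29 FPKM at 24 h in both groups, 1.68 to 2.38 FPKM in untreated spheroids at 144 h and 0.62 to 0.92 FPKM with TPN at 144 h, while DES and LUM were at or below 0.09 FPKM in every library. Of the 11 stellate markers tested, 8 were lower at 144 h than at 24 h in untreated spheroids and 8 in exposed ones, and 5 were lower with TPN at 144 h. Markers of both lists are counted as lower when past both thresholds given below. Of all genes tested, 19.0% passed them in either direction over time in untreated spheroids, 26.7% in exposed ones, and 9.48% with TPN at 144 h. The summed level of the stellate list was higher at 144 h, going from 1047 to 1117 FPKM in untreated spheroids and 1064 to 1098 FPKM with TPN at 24 h, to 1422 to 1661 and 2006 to 2150 FPKM at 144 h, and most of it was FN1, fibronectin, which hepatocytes also make. The 4 endothelial and 3 trophoblast markers stayed below 0.5 FPKM throughout. Of the bile duct markers, KRT19 was at 64.79 to 119.86 FPKM and EPCAM at 128.05 to 164.46 FPKM, while KRT7 was at or below 0.09 FPKM. Of the immune markers, CD68 was at 45.91 to 64.80 FPKM, while PTPRC, MARCO and CD3E were at or below 0.05 FPKM. In bulk RNA, fewer cells of one type and less RNA per cell cannot be told apart, and the part that the shifts in hepatocyte and stellate markers have in the values below was not tested.

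FPKM is scaled by transcript length, so the 10 genes can be set in order of level. SULT1A1, the phenol sulfotransferase of liver that also sulfates estrogens, averaged 224 FPKM over the 12 libraries and stood above 97.2% of the genes tested. SULT2A1, which sulfates dehydroepiandrosterone and bile acids, followed at 41.8 FPKM, and HSD17B2, which oxidizes estradiol and testosterone to their weaker forms, at 23.8 FPKM. These 3 were separate from each other and from the rest in every library. CYP19A1, aromatase, averaged 7.54 FPKM and HSD11B2, which turns cortisol into inactive cortisone, 4.69 FPKM, and their ranges over the 12 libraries overlapped, at 5.65 to 11.41 and 1.86 to 6.71 FPKM. Below them came SRD5A1, a reductase that forms dihydrotestosterone, at 3.23 FPKM. The last 4 were SULT1E1, estrogen sulfotransferase, at 1.91 FPKM, HSD17B1, which reduces estrone to estradiol, at 1.85 FPKM, CYP21A2, the steroid hydroxylase of the adrenal cortex, at 1.45 FPKM, and STS, which removes sulfate from steroids, at 1.11 FPKM. The ranges of these 4 overlapped, and the order below CYP19A1 depends on the group. With TPN at 144 h the mean of HSD11B2, at 2.11 FPKM, was below those of SRD5A1 (2.98), CYP21A2 (2.58) and HSD17B1 (2.40), and in untreated spheroids at 144 h SULT1E1, at 2.83 to 3.25 FPKM, overlapped SRD5A1. At that depth, 1 FPKM on a transcript of 1500 bases corresponded to about 22.9 fragments. A longer transcript has more fragments at the same FPKM, and the fragments behind each of the lowest 4 genes were not worked out.

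**Figure D1:**
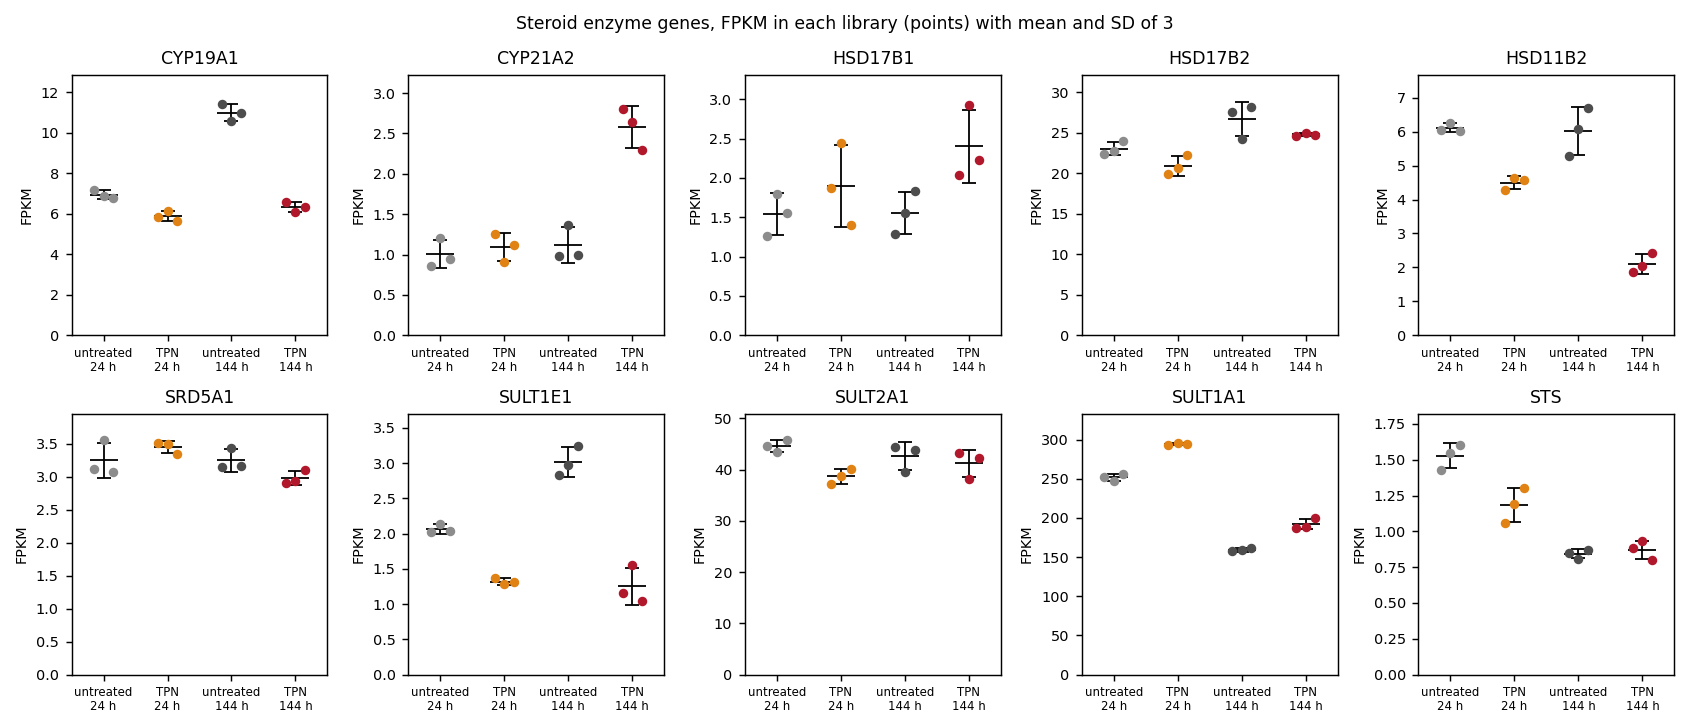
FPKM (vertical axis, from 0) of the 10 genes in each of the 4 groups (horizontal axis). Points are single libraries and bars the mean ± SD of 3. In exposed spheroids at 144 h HSD11B2 is at its lowest, at 1.86 to 2.43 FPKM, and CYP21A2 at its highest, at 2.30 to 2.80 FPKM.

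With TPN, the genes were tested with limma on log2(FPKM + 0.1), and a gene is said to have changed when its Benjamini-Hochberg adjusted p was below 0.05 and its absolute log2 fold change above 0.58. Fold changes on this scale are slightly smaller than ratios of FPKM for the low genes. A level called so many fold lower or higher is a ratio of group means of FPKM. After 24 h, 1 of the 10 genes had changed, SULT1E1, against 0.914% of all genes tested. With the adjusted p alone, 5 of the 10 passed, 4 lower and 1 higher, against 10.5%. After 144 h, 5 of the 10 had changed, with CYP19A1, HSD11B2 and SULT1E1 lower and CYP21A2 and HSD17B1 higher, against 9.48% of all genes, and 6 passed on the adjusted p alone, against 52.5%. The median absolute log2 fold change of the 10 genes was 0.23 at 24 h and 0.43 at 144 h, where that of all genes was 0.072 and 0.17.

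HSD11B2 had the largest fall of the 10 genes at 144 h. It is the enzyme that protects the mineralocorticoid receptor of the kidney from cortisol and lies on chromosome 16 at 67430667 to 67437553 (GRCh38.p13). At 24 h it measured 6.06, 6.27 and 6.03 FPKM in untreated spheroids and 4.27, 4.63 and 4.57 FPKM with TPN. After 144 h the values were 5.28, 6.08 and 6.71 FPKM untreated and 1.86, 2.04 and 2.43 FPKM with TPN. The groups did not overlap at either time, and the exposed libraries of 144 h were the lowest 3 of all 12. On the log2 scale the change was -0.44 ± 0.097 (SE) at 24 h, adjusted p = 0.0101 in limma, which is under the fold threshold. The value at 144 h was -1.47 ± 0.097, adjusted p = 3.58e-08 in limma, and mean FPKM was 2.85-fold lower. The difference between the 2 effects was itself past both thresholds, at -1.03 (95% confidence interval -1.33 to -0.74, adjusted p = 0.000104).

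SULT1E1 was the only one of the 10 genes to pass both thresholds at both times. Its product has the highest affinity for estradiol among the sulfotransferases, and the gene lies on chromosome 4 at 69824583 to 69860151 (GRCh38.p13). Its promoter is shown above. It measured 2.02, 2.14 and 2.03 FPKM in untreated spheroids at 24 h and 1.37, 1.28 and 1.31 FPKM with TPN. At 144 h the untreated libraries were at 2.83, 2.98 and 3.25 FPKM and the exposed ones at 1.16, 1.55 and 1.04 FPKM. All 6 exposed libraries were thus below all 6 untreated ones. Its log2 fold change was -0.61 ± 0.12 (SE) at 24 h, adjusted p = 0.00527 in limma, a level 1.56-fold lower. After 144 h it was -1.22 ± 0.12, adjusted p = 1.81e-06, a level 2.42-fold lower. The effect at 144 h exceeded that at 24 h by -0.62 (95% confidence interval -0.99 to -0.25, adjusted p = 0.0150). The call at 24 h did not hold with a pseudocount of 1, where the log2 fold change was -0.40. That of the difference did not hold with the same pseudocount (-0.44), nor without untreated replicate 3 (-0.56), TPN replicate 1 (-0.58) or TPN replicate 3 (-0.50) of 144 h.

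CYP19A1 showed its largest contrast in the untreated cultures of 144 h. Aromatase makes estrogens from androgens, and the gene spans chromosome 15 from 51208057 to 51338596 (GRCh38.p13) with many alternative first exons, which a value per gene does not separate. At 24 h it measured 7.19, 6.86 and 6.78 FPKM untreated and 5.83, 6.16 and 5.65 FPKM with TPN. The 144 h libraries were at 11.41, 10.56 and 11 FPKM untreated and 6.58, 6.09 and 6.31 FPKM with TPN. The 3 untreated libraries of 144 h stood alone at the top, and the other 9 lay between 5.65 and 7.19 FPKM. The log2 fold change with TPN was -0.24 ± 0.053 (SE) at 24 h, adjusted p = 0.0110 in limma, under the fold threshold. The value at 144 h was -0.79 ± 0.053, adjusted p = 4.41e-08, a level 1.74-fold lower. The difference of the 2 effects was -0.55 (95% confidence interval -0.71 to -0.39, adjusted p = 0.000127), also under the fold threshold.

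CYP21A2 had the largest rise of the 10 genes at 144 h. The enzyme adds a hydroxyl group on the way to cortisol and aldosterone in the adrenal cortex. It measured 0.86, 1.2 and 0.95 FPKM in untreated spheroids and 1.25, 0.91 and 1.12 FPKM with TPN at 24 h. By 144 h it stood at 0.98, 1.37 and 1.00 FPKM untreated and 2.80, 2.64 and 2.30 FPKM with TPN. The exposed libraries of 144 h were above the other 9, which overlapped among themselves. The log2 fold change was 0.11 ± 0.16 (SE) at 24 h, adjusted p = 0.733 in limma, with a 95% confidence interval of -0.23 to 0.46. After 144 h it was 1.15 ± 0.16, adjusted p = 4.13e-05, a level 2.31-fold higher, and the difference of the 2 effects was 1.03 (0.55 to 1.52, adjusted p = 0.00365).

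The reads of CYP21A2 carry a limit that its test does not show. It has a near-identical pseudogene and overlaps TNXB on the opposite strand, beside the complement genes C4A and C4B, and the table gives its position on an alternate contig, so no position from the table is printed. The libraries kept the strand of the RNA, but whether the counting used it is not given in the sources used here. At 144 h, C4A was at 135.00, 142.20 and 134.29 FPKM untreated and 186.59, 181.67 and 189.32 FPKM with TPN, a log2 fold change of 0.44 (adjusted p = 6.72e-07 in limma), and that of C4B was 0.41 (adjusted p = 7.59e-06), both under the fold threshold. TNXB, which encodes a matrix protein, was at 1.78, 1.79 and 1.87 FPKM untreated and 2.2, 2.26 and 2.2 FPKM with TPN, a log2 fold change of 0.28 (adjusted p = 0.153), and its effects at 144 h and 24 h differed by 0.67 (adjusted p = 0.0362). The part of reads shared with the pseudogene or TNXB in the rise of CYP21A2 was not tested. NR5A1, the nuclear receptor known for switching on steroid enzyme genes in adrenal and gonad, was at 23.95 to 29.55 FPKM in all 12 libraries, and its log2 fold change with TPN at 144 h was -0.019 (95% confidence interval -0.11 to 0.071). CYP17A1, an enzyme of adrenal and gonadal steroid synthesis, was at 0.65 FPKM or less. INHA, the inhibin subunit that also marks such cells, moved with the groups, at 7.44 to 9.04 FPKM untreated and 8.60 to 10.27 FPKM with TPN at 24 h, and at 29.29 to 31.77 and 18.76 to 21.78 FPKM at 144 h. It rose with time in untreated spheroids by 1.86 on the log2 scale (adjusted p = 3.04e-10 in limma), its log2 fold change with TPN at 144 h was -0.56 (adjusted p = 8.38e-05), under the fold threshold, and the effects of TPN at 144 h and 24 h differed by -0.77 (adjusted p = 0.000320). Its part in the values of CYP21A2 and CYP19A1 was not tested.

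The enzyme pair that interconverts estrone and estradiol was uneven. HSD17B1, on chromosome 17 at 42552923 to 42557467 (GRCh38.p13), measured 1.26, 1.80 and 1.56 FPKM untreated and 1.87, 2.44 and 1.40 FPKM with TPN at 24 h, and the groups overlapped. After 144 h the values were 1.29, 1.55 and 1.83 FPKM untreated and 2.04, 2.93 and 2.23 FPKM with TPN, and they did not. On the log2 scale the change was 0.27 ± 0.20 (SE) at 24 h (adjusted p = 0.451 in limma) and 0.59 ± 0.20 at 144 h (adjusted p = 0.0216), just past the fold threshold. The call at 144 h did not hold without untreated replicate 1 (0.47, adjusted p = 0.0883) or TPN replicate 2 (0.44, adjusted p = 0.0990), nor with a pseudocount of 1 (0.41), equal FPKM sums (0.577) or quantile normalization (0.51). The gene also has a pseudogene with which reads can be shared.

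HSD17B2, on chromosome 16 at 82035253 to 82098534 (GRCh38.p13), measured 22.42, 22.70 and 23.92 FPKM untreated and 19.84, 20.69 and 22.27 FPKM with TPN at 24 h. The 144 h libraries were at 27.55, 24.25 and 28.21 FPKM untreated and 24.59, 25.01 and 24.72 FPKM with TPN. The exposed libraries were lower at 24 h by a narrow gap, and the groups overlapped at 144 h. The log2 fold changes were -0.14 (95% confidence interval -0.26 to -0.017, adjusted p = 0.146 in limma) and -0.10 (-0.22 to 0.017, adjusted p = 0.137), so neither passed. The ratio of HSD17B2 to HSD17B1 was 17.5 ± 3.37 (SD, n = 3) in untreated spheroids and 10.6 ± 1.82 with TPN at 144 h, without overlap (p = 0.1, two-sided exact permutation test, the smallest p that 3 against 3 can give). At 24 h the ratios were 15.2 ± 2.59 and 11.7 ± 3.82 and overlapped (exact p = 0.3).

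SRD5A1, which reduces testosterone to the stronger dihydrotestosterone and starts the breakdown of many other steroids, passed at neither time. The gene lies on chromosome 5 at 6633440 to 6677261 (GRCh38.p13). It measured 3.11, 3.56 and 3.07 FPKM untreated and 3.51, 3.5 and 3.34 FPKM with TPN at 24 h, and 3.14, 3.44 and 3.16 FPKM untreated and 2.91, 2.93 and 3.10 FPKM with TPN at 144 h. The exposed libraries of 144 h were the lowest of their time by a narrow gap. The log2 fold changes were 0.088 (95% confidence interval -0.071 to 0.25) and -0.12 (-0.28 to 0.040), with adjusted p values of 0.523 and 0.192 in limma.

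**Figure D2:**
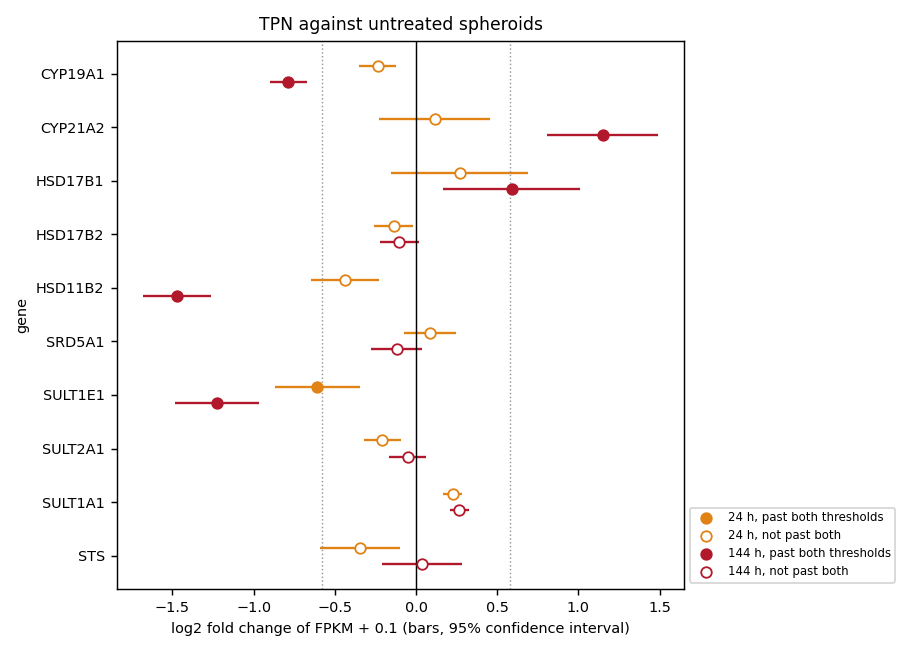
Log2 fold change of FPKM + 0.1 with TPN (horizontal axis) for the 10 genes (vertical axis) at 24 h and at 144 h. Bars are 95% confidence intervals, filled points passed both thresholds and dotted lines mark a log2 fold change of -0.58 and 0.58. The filled points of 144 h run from -1.47 for HSD11B2 to 1.15 for CYP21A2, and the only filled point of 24 h is SULT1E1.

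The abundant sulfotransferase genes moved little. SULT2A1, on chromosome 19 at 47870467 to 47886315 (GRCh38.p13), measured 44.67, 43.47 and 45.82 FPKM untreated and 37.15, 38.78 and 40.13 FPKM with TPN at 24 h. By 144 h it stood at 44.50, 39.59 and 43.91 FPKM untreated and 43.26, 38.23 and 42.20 FPKM with TPN. The groups were apart at 24 h and overlapped at 144 h. Its log2 fold change was -0.21 ± 0.053 (SE) at 24 h (adjusted p = 0.0229 in limma), under the fold threshold, and -0.049 (95% confidence interval -0.16 to 0.064, adjusted p = 0.457) at 144 h. The difference of the 2 effects was 0.16 (-0.0036 to 0.32, adjusted p = 0.130).

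SULT1A1, on chromosome 16 at 28605258 to 28623395 (GRCh38.p13), measured 251.88, 247.47 and 256.13 FPKM untreated and 292.91, 295.36 and 294.72 FPKM with TPN at 24 h. After 144 h the values were 157.21, 158.52 and 162.03 FPKM untreated and 187.48, 188.70 and 199.22 FPKM with TPN. Exposed libraries were higher at both times without overlap. The log2 fold change was 0.23 ± 0.028 (SE) at 24 h (adjusted p = 0.000136 in limma) and 0.27 ± 0.028 at 144 h (adjusted p = 2.73e-06), both under the fold threshold. The 2 effects differed by 0.043 (95% confidence interval -0.042 to 0.13).

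SULT1A1 shares near-identical sequence with SULT1A2, SULT1A3 and SULT1A4, so part of its reads is assigned among them by estimate. SULT1A4 was at 0.11 FPKM in untreated replicate 1 of 144 h and at 81.50 and 73.05 FPKM in the other two, while SULT1A3 was at 197.32, 108.18 and 121.55 FPKM. The sum of SULT1A3 and SULT1A4 was even, at 197.43, 189.68 and 194.60 FPKM. The 4 genes together summed to 678 ± 15.2 FPKM (SD, n = 3) untreated and 806 ± 8.87 with TPN at 24 h, and to 382 ± 4.37 and 476 ± 11.9 at 144 h. Their summed level gave log2 fold changes of 0.25 and 0.31, close to those of SULT1A1 alone, and SULT1A1 held between 36.1% and 42.0% of the sum in every library.

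STS works against the sulfotransferases by releasing active steroids from their sulfates, and its gene lies on chromosome X at 7147290 to 7354641 (GRCh38.p13). It measured 1.43, 1.55 and 1.60 FPKM untreated and 1.06, 1.19 and 1.3 FPKM with TPN at 24 h, and 0.85, 0.81 and 0.87 FPKM untreated and 0.88, 0.93 and 0.80 FPKM with TPN at 144 h. The exposed libraries were lower at 24 h and overlapped the untreated ones at 144 h. On the log2 scale the change was -0.34 (95% confidence interval -0.59 to -0.10, adjusted p = 0.0732 in limma) at 24 h and 0.039 (-0.21 to 0.28, adjusted p = 0.795) at 144 h, and the effects differed by 0.38 (0.037 to 0.73, adjusted p = 0.0883). The ratio of SULT1E1 to STS, estrogen sulfation against desulfation in transcript terms, was 1.35 ± 0.0755 (SD, n = 3) in untreated spheroids and 1.13 ± 0.149 with TPN at 24 h, which overlapped (exact p = 0.2). The value at 144 h was 3.58 ± 0.220 untreated and 1.43 ± 0.207 with TPN, without overlap (exact p = 0.1, the smallest possible). The untreated ratio was higher at 144 h than at 24 h in all 3 libraries.

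**Figure D3:**
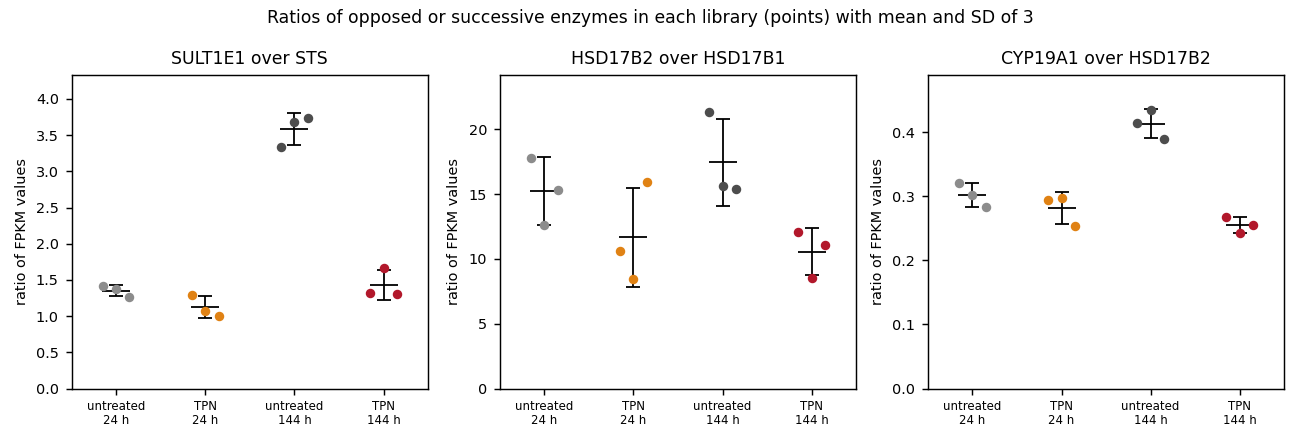
Ratio of FPKM values (vertical axis, from 0) of SULT1E1 to STS, HSD17B2 to HSD17B1 and CYP19A1 to HSD17B2 in the 4 groups (horizontal axis). Points are single libraries and bars the mean ± SD of 3. The untreated libraries of 144 h stand alone in the ratio of SULT1E1 to STS, at 3.33 to 3.74, and in that of CYP19A1 to HSD17B2, at 0.390 to 0.435.

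The effect of TPN at 144 h was compared with that at 24 h in the same fit, and 3 of the 10 genes passed both thresholds for this difference, against 5.87% of all genes, with CYP21A2 higher and HSD11B2 and SULT1E1 lower. With the adjusted p alone 4 passed, CYP19A1 being the other, against 30.4%. The untreated groups enter this comparison and each of the 2 it contrasts, so it adds no separate evidence for them.

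The genes also differed with time in culture, though at the median less than genes in general. The median absolute log2 fold change of the 10 genes over time was 0.17 in untreated and 0.29 in exposed spheroids. That of all genes was 0.31 and 0.36. Over all genes tested, the log2 fold change from 24 h to 144 h had a median of -0.18 in untreated and in exposed spheroids, which a median-ratio scaling brings to -0.0078 and -0.011, so values are also given relative to the median of all genes. In untreated spheroids 3 of the 10 genes had changed, against 19.0% of all genes, and 5 passed on the adjusted p alone, against 72.6%. CYP19A1 rose by 0.65 ± 0.053 (SE) on the log2 scale, adjusted p = 9.68e-08 in limma, or 0.84 above the median. STS fell by 0.79 ± 0.11, adjusted p = 2.73e-05, and lay -0.60 from the median, a call that was lost with a pseudocount of 1, where the fold change was -0.45. SULT1A1 fell by 0.66 ± 0.028, adjusted p = 1.64e-10, and lay -0.48 from the median. SULT1E1 showed 0.53 (adjusted p = 0.00138), or 0.71 above the median, and HSD17B2 0.21 (adjusted p = 0.00395), or 0.39 above it. The call of SULT1A1 was lost with median-ratio scaling (-0.48) and quantile normalization (-0.57), and SULT1E1 passed with both (0.70 and 0.60).

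In exposed spheroids 3 of the 10 genes had changed between 24 h and 144 h, against 26.7% of all genes, and 6 passed on the adjusted p alone, against 76.2%. CYP21A2 rose by 1.17 ± 0.16 (SE), adjusted p = 1.22e-05 in limma, and HSD11B2 fell by 1.06 ± 0.097, adjusted p = 2.15e-07. SULT1A1 fell by 0.62 ± 0.028, adjusted p = 1.58e-10, a call lost with median-ratio scaling (-0.44) and quantile normalization (-0.53). CYP19A1, in turn, showed 0.10 (95% confidence interval -0.010 to 0.22) and SULT1E1 -0.090 (-0.35 to 0.17) in exposed spheroids, where the untreated values were 0.65 and 0.53. The ratio of CYP19A1 to HSD17B2, the step that makes estrogens against the step that oxidizes estradiol, was 0.302 ± 0.0186 (SD, n = 3) and 0.413 ± 0.0228 in untreated spheroids at 24 h and 144 h, and 0.282 ± 0.0244 and 0.255 ± 0.0120 with TPN. The 2 time comparisons share no library with each other, but each shares 3 with both TPN comparisons.

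**Figure D4:**
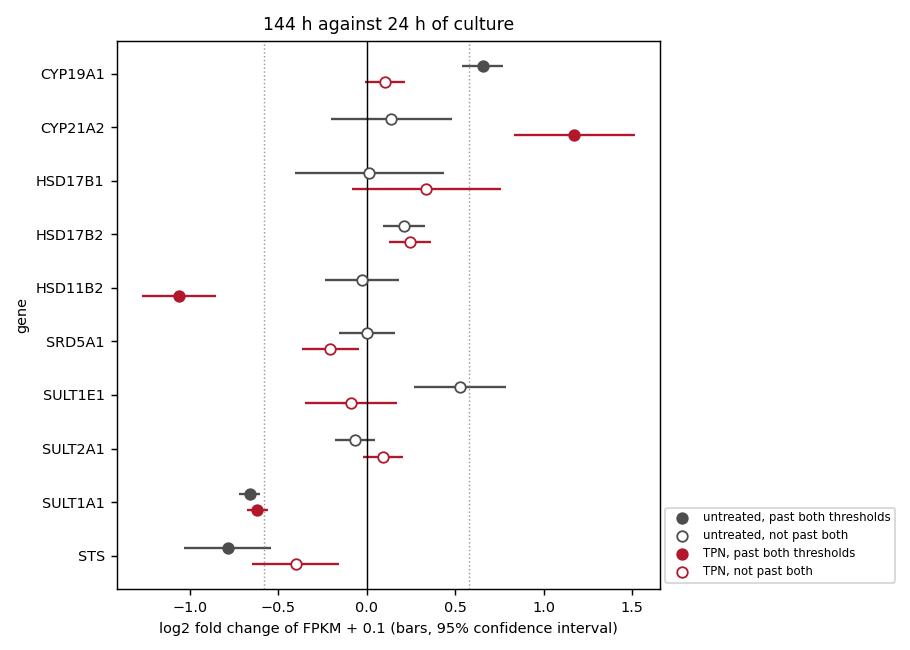
Log2 fold change of FPKM + 0.1 at 144 h against 24 h (horizontal axis) for the 10 genes (vertical axis), in untreated and in exposed spheroids. Bars are 95% confidence intervals, filled points passed both thresholds and dotted lines mark -0.58 and 0.58. CYP19A1 and STS are filled in untreated spheroids, CYP21A2 and HSD11B2 in exposed ones, and SULT1A1 in both, at -0.66 and -0.62, a pair of calls that median-ratio and quantile scaling end.

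Other genes of the pathway were taken from lists by role, described by counts beside the shares of all genes given above. Of 9 genes for the synthesis of steroids from cholesterol, none had changed at 24 h and 1 at 144 h. That gene was TSPO, which helps cholesterol enter mitochondria, with 3.49, 4.42 and 3.91 FPKM untreated and 12.21, 11.89 and 12.98 FPKM with TPN (log2 fold change 1.63, adjusted p = 2.93e-07 in limma). POR, the electron donor of CYP19A1 and CYP21A2, had 0.080 at 24 h and 0.43 at 144 h (adjusted p = 1.55e-07), under the fold threshold. Of 9 genes for other hydroxysteroid dehydrogenases and the reactivation of glucocorticoids, none had changed at 24 h and 1, RDH5, at 144 h. A retinol dehydrogenase that also acts on steroids, RDH5 was at -0.582, just past the threshold. On the adjusted p alone, none of this list passed at 24 h, and 2 were higher and 6 lower at 144 h.

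Reductases that act on the steroid ring were the list with the largest share changed at 144 h. Of 6 tested, 2 rose at 24 h and 4 at 144 h, and none fell. AKR1C1, which inactivates progesterone, measured 161.96, 197.92 and 143.48 FPKM untreated and 341.63, 341.37 and 341.67 FPKM with TPN at 24 h, and 169.87, 168.20 and 174.26 FPKM against 725.41, 737.89 and 791.01 FPKM at 144 h. Its log2 fold change was 1.04 (adjusted p = 1.76e-06 in limma) and 2.14 (adjusted p = 1.87e-10). AKR1C2, which breaks down dihydrotestosterone and shares nearly all its sequence with AKR1C1, showed 1.45 and 2.02, so reads can be shared between the pair. Of 11 P450 enzymes that hydroxylate steroids, 3 were tested, of which 1 had fallen at 24 h and 1 had risen at 144 h. CYP3A7, the fetal enzyme that hydroxylates dehydroepiandrosterone sulfate, fell at 24 h by 1.14 on the log2 scale (adjusted p = 2.67e-05 in limma). At 144 h it was also lower without overlap, though not past both thresholds. It measured 2.42, 1.84 and 2.1 FPKM untreated and 1.2, 1.45 and 1.5 FPKM with TPN. CYP1A1, which hydroxylates estradiol, measured 7.96, 7.72 and 9.24 FPKM untreated and 5.52, 6.25 and 6.16 FPKM with TPN at 24 h, and 7.33, 6.98 and 8.68 FPKM against 13.07, 11.82 and 12.88 FPKM at 144 h. Its log2 fold change was -0.47 at 24 h (adjusted p = 0.00343), under the fold threshold, and 0.71 at 144 h (adjusted p = 1.28e-05), and the effects differed by 1.18 (adjusted p = 1.59e-05).

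On the side of sulfation, none of 8 other sulfotransferase genes had changed at 24 h and 1 at 144 h, SULT1C2, at 2.14, 1.34 and 1.35 FPKM untreated and 3.31, 2.56 and 2.65 FPKM with TPN (log2 fold change 0.81, adjusted p = 0.000523 in limma). None of 8 genes for the supply of the sulfate donor had changed at either time. PAPSS1 had -0.046 at 24 h and -0.11 at 144 h (adjusted p = 0.470 and 0.0151), and PAPSS2, below the minimum for testing, was at 0.12 to 0.94 FPKM over all libraries. Of 13 other sulfatases and activators, none had changed at 24 h and 2 rose at 144 h, IDS (1.04, adjusted p = 3.68e-06) and GALNS (0.74, adjusted p = 1.23e-06), lysosomal enzymes that act on glycosaminoglycans rather than steroids. SUMF1, which activates STS and the other sulfatases, had -0.0067 and -0.21 (adjusted p = 0.969 and 0.0185).

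For the competing route of glucuronidation, none of 6 genes had changed at 24 h and 3 rose at 144 h. UGT1A1, which conjugates estradiol and bilirubin, went from 0.27, 0.23 and 0.13 FPKM to 2.89, 2.87 and 3.69 FPKM at 144 h (log2 fold change 3.41, adjusted p = 3.20e-08 in limma), and its reads can be shared with the other UGT1A genes, which have exons in common with it. UGT2B4 was at 0.73, 0.59 and 0.69 FPKM untreated and 1.3, 1.11 and 1.28 FPKM with TPN (0.79, adjusted p = 0.0232). Of 12 transporters of steroids and their sulfates, 1 was higher with TPN after 24 h, while after 144 h 2 were higher and 1 lower. ABCC2, which exports conjugates into bile, had 0.74 (adjusted p = 1.29e-08) and 0.98 (adjusted p = 1.42e-10), ABCC3, which exports them towards blood, 1.48 (adjusted p = 2.09e-12) at 144 h, and SLC22A9, an importer of steroid sulfates, -0.60 (adjusted p = 0.00207) at 144 h.

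Of 15 receptors and regulators tested, none had changed at 24 h, whereas by 144 h 1 was higher and 3 were lower. On the adjusted p alone, 1 was higher and 5 were lower at 24 h, and 3 were higher and 8 lower at 144 h. NR1H4, the bile acid receptor FXR, measured 16.40, 15.67 and 15.48 FPKM untreated and 9.79, 8.04 and 9.28 FPKM with TPN at 144 h (log2 fold change -0.81, adjusted p = 1.35e-06 in limma), and FOXA1, a factor that opens liver chromatin, 11.32, 13.24 and 12.33 FPKM against 7.39, 6.40 and 7.25 FPKM (-0.80, adjusted p = 3.58e-07). Both were already lower at 24 h without overlap. NR1H4 had -0.41 there (adjusted p = 0.00363 in limma), under the fold threshold. FOXA1 measured 15.98, 15.73 and 16.73 FPKM untreated and 12.07, 13.4 and 12.46 FPKM with TPN at 24 h. HNF4A, the hepatocyte nuclear factor, had -0.35 at 144 h (adjusted p = 2.36e-07), and NR1I2, the pregnane X receptor, 0.30 at 24 h and 0.53 at 144 h (adjusted p = 0.00743 and 1.01e-05), all under the fold threshold. The glucocorticoid receptor NR3C1, whose ligand HSD11B2 inactivates, had -0.36 at 24 h (adjusted p = 0.00217) and -0.083 at 144 h (adjusted p = 0.280). NR1I3 and ESR1 were below the minimum for testing, at 0 to 0.76 and 0.14 to 0.47 FPKM. Of 20 genes tested in the KEGG map of steroid hormone biosynthesis, with the 10 left out, 2 had risen and 1 had fallen at 24 h, and 7 had risen and none fallen at 144 h. On the adjusted p alone, 3 were higher and 4 lower at 24 h, and 8 were higher and 7 lower at 144 h. The map overlaps the lists above, so its counts are not of further genes alone. Its changed genes of 24 h were AKR1C1, AKR1C2 and CYP3A7, and AKR1C1 and UGT1A1 recur at 144 h.

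**Figure D5:**
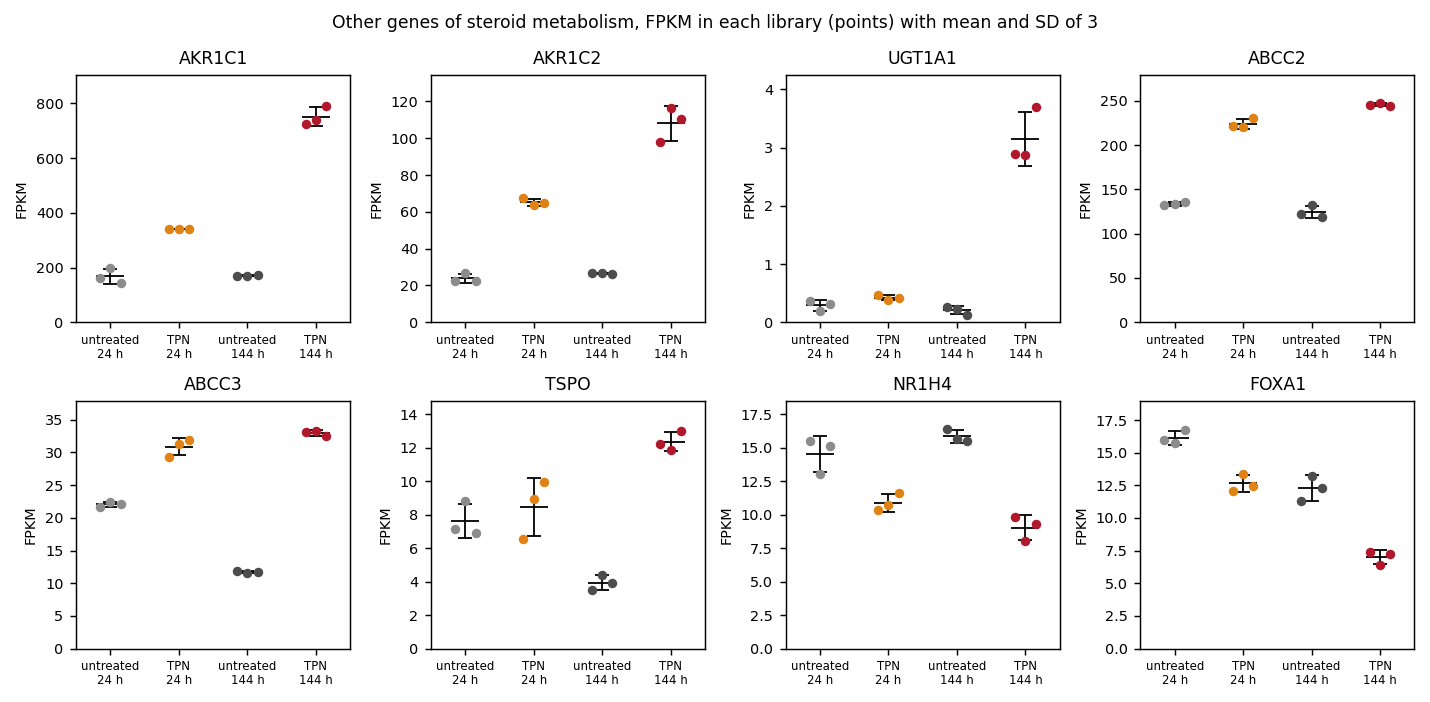
FPKM (vertical axis, from 0) of 8 other genes of steroid metabolism, transport and control in the 4 groups (horizontal axis). Points are single libraries and bars the mean ± SD of 3. AKR1C1, AKR1C2, UGT1A1, ABCC2, ABCC3 and TSPO are highest, and NR1H4 and FOXA1 lowest, in exposed spheroids at 144 h.

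The pattern of each gene over the 12 libraries was matched to that of all other genes tested by Pearson's r of log2(FPKM + 0.1), given as a description, since the libraries share 4 groups and each match is the best of many. CYP19A1 was most like SLC13A5, a citrate importer (r = 0.988), and APOBEC3C (0.985), both highest in untreated spheroids at 144 h. HSD11B2 was most like COL9A2 (0.987), a collagen chain, and BAHCC1 (0.986), and CYP21A2 most like EZH1 (0.983) and LENG8 (0.968). SULT1E1 was most like SLC30A10, a manganese exporter (0.970), and GPC6 (0.968), and SULT1A1 most like AIFM2 (0.994) and LASP1 (0.993). STS was closest to NFYA and LITAF (both 0.971), HSD17B2 to PLK2 (0.932) and RNF144B (0.928), SRD5A1 to TCF25 (0.914) and ARMC2 (0.880), HSD17B1 to PEDS1-UBE2V1 (0.871), and SULT2A1 to SERPINA1 (0.848) and ENPP2 (0.845). Among the 10 genes themselves, r over the 12 libraries ran from -0.92 for CYP21A2 with HSD11B2 to 0.88 for CYP19A1 with SULT1E1.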

How the data were processed

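Per the labels and the study's methods, RNA of 12 pooled spheroid samples was sequenced on the DNBSEQ platform. The authors filtered reads with SOAPnuke, aligned them with HISAT2 2.0.4 to GRCh38.p13 and with Bowtie2 2.2.5 to reference transcripts, and computed expression with RSEM. The values used here are the FPKM values the authors deposited, with 1 column per library. FPKM is per length and per library total, so counts were not used here, and the DESeq2 test the authors ran on counts could not be repeated. From the steps of low values in 39 genes with 1 annotated transcript, 1 depth was fitted for all libraries together. It was 18564451 fragments per library (quartiles 18409406 to 18752777 over genes), and depth limits the low genes.

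The 11713 genes that averaged at least 0.5 FPKM entered 1 model of 4 group means on the log2(FPKM + 0.1) scale. It was fitted by limma (version 3.58.1, R version 4.3.3) with an intensity trend, and p values were adjusted by Benjamini-Hochberg over all those genes. Ratios were compared by two-sided exact permutation of 3 against 3. Python 3.11.15 served for tables and plots. The fit was also run on simulated data with independent noise and changes well past the fold threshold. That run does not bear on calls near the threshold or on shared reads. Alternatives changed pseudocount, filter, scaling, libraries, trend, threshold and replicate block, and left out each library. The genes and lists were chosen with earlier results of these data known. Named are all 10 genes, the 2 largest rises and falls of each list among changed genes without overlap, 11 fixed cofactor and receptor genes, and the 2 most similar genes of each, apart from a few genes that are not reported here. Genes that share reads or position with one of the 10, and marker genes, were added to show limits. Lines of the table without a gene number were left out.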

Additional observations from a re-analysis of the deposited data

Results flagged for a closer look

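For 3 of the 10 genes the effect of TPN at 144 h differed from that at 24 h in the test of the difference itself (limma, both thresholds). Subtracting the log2 fold change of 24 h from that of 144 h gave 1.03 for CYP21A2 (adjusted p = 0.00365), -1.03 for HSD11B2 (adjusted p = 0.000104) and -0.62 for SULT1E1 (adjusted p = 0.0150). Leaving out single libraries gave 0.91 to 1.18 for CYP21A2, -1.13 to -0.95 for HSD11B2 and -0.77 to -0.50 for SULT1E1, and the call held in 12, 12 and 9 of the 12 fits. With 3 libraries per group, single outlying libraries were not sought.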

How the results depend on the processing

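Direction and call of the 4 largest changes with TPN at 144 h (CYP19A1, CYP21A2, HSD11B2 and SULT1E1) held under all alternatives that test them. The number of the 10 genes that had changed moved as follows. At 24 h it was 0 with a pseudocount of 1 and with a mean of at least 5 FPKM, and 5 on the adjusted p alone. With a mean of at least 5 FPKM, which leaves CYP19A1, HSD17B2, SULT2A1 and SULT1A1 in the test, it was 1 at 144 h, 0 for the difference of the effects and 1 for exposed spheroids over time. On the adjusted p alone it was 5 for untreated and 6 for exposed spheroids over time. Some values near 0 changed sign. The log2 fold change of STS with TPN at 144 h was -0.11 with quantile normalization. In untreated spheroids over time, SRD5A1 was at -0.013 with equal FPKM sums, HSD11B2 at 0.15 and SULT2A1 at 0.11 with median-ratio scaling, and at 0.096 and 0.10 with quantile normalization. In exposed spheroids over time, SULT1E1 was at 0.073 with median-ratio scaling. With single libraries left out, the log2 fold change ranged from -0.0059 to 0.091 for STS and from -0.10 to 0.0040 for SULT2A1 (TPN at 144 h), and from -0.033 to 0.079 for HSD17B2 (difference of the effects). For untreated spheroids over time it ranged from -0.039 to 0.068 for SRD5A1, from -0.0057 to 0.26 for CYP21A2, from -0.11 to 0.061 for HSD11B2 and from -0.11 to 0.14 for HSD17B1. For exposed spheroids over time it ranged from -0.24 to 0.023 for SULT1E1. The cause of these changes was not tested. Summing SULT1A1 to SULT1A4, chosen after seeing the data, changed no call.

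The replicate numbers of the groups may not pair the libraries. Same-numbered libraries correlated in their deviations from the group means at 0.091, -0.083 and 0.10 at 24 h and no better at 144 h. With the replicate number as a block, the genes changed numbered 1 at 24 h, 5 at 144 h and 3 in each of the other comparisons, as without it, and no call changed. Low expression limits CYP21A2, HSD17B1, SULT1E1 and STS.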
